A study of Mus musculus with 16 samples.

Results

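The dependence of the *Trsp* knockout effect on KEAP1 was examined in all 16 of the 16 liver libraries, taken as a 2 by 2 design of the *Keap1* allele and the *Alb*Cre transgene. For each gene, the effect of *Alb*Cre in the *Keap1* mutant was set against its effect with normal KEAP1, and the difference between the 2 effects is the interaction. The livers came from mice labelled male at 20 days of age, with 4 libraries in each genotype, and all genotypes carried floxed *Trsp* alleles. The genotypes were Trsp fl/fl, Trsp fl/fl::AlbCre (*Trsp* knockout), Keap1 C226S&C613S homo::Trsp fl/fl, called the *Keap1* mutant control here, and, with *Alb*Cre added to it, Keap1 C226S&C613S homo::Trsp fl/fl::AlbCre (compound mutant). *Alb*Cre is driven by the albumin promoter, and the study describes the knockout as hepatocyte-specific. *Trsp* in other liver cells was not measured here. The KEAP1 substitutions are germline and present in every cell. In whole liver, fewer cells of a type and less RNA per cell cannot be told apart.

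*Trsp* encodes the tRNA that inserts selenocysteine, and without it glutathione peroxidases, thioredoxin reductases and other selenoproteins are not made. KEAP1 is the adaptor that targets the transcription factor NRF2 for degradation, and oxidation or alkylation of its cysteines frees NRF2 to switch on genes of glutathione use, quinone and carbonyl reduction, glucuronidation and export. Liver is rich in these detoxifying enzymes. The comparison asked which parts of the response to selenoprotein loss need Cys226 and Cys613 of KEAP1 and which do not.

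The alleles are defined by the genotyping probes of the study, shown here because the codon in capitals is the one that differs between the *Keap1* alleles. The probes lie on the coding strand of *Keap1*, and the codons of Cys226 and Cys613 were located in the open reading frame of the GENCODE vM21 transcript. The substitutions are C226S and C613S.
C226WT-P: tgtcacacTGCcagctg
C226S-P: ctgtcacacTCCcagctg
C613WT-P: atggaacccTGTcggaa
C613S-P: atggaacccTCCcggaa

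Values are log2 of the normalized read count plus 4, as deposited, so that a gene without reads stands at 2 and changes of weakly expressed genes are understated. Between 11386716 and 19164094 reads were recovered per library, and 15781 of 18209 named genes passed the filter on low counts and were tested with limma. Rose and fell are written of adjusted p-values (Benjamini-Hochberg over all genes tested) under 0.05. *Trsp* has no row in the table, so the deletion itself was not measured. *Keap1* mRNA was at 9.66 ± 0.19, 9.76 ± 0.23, 9.52 ± 0.14 and 9.53 ± 0.16 in the 4 genotypes in the order given above (SD, n = 4 each). One library goes against its label. Compound mutant replicate 1, labelled male, had 28799 *Xist* reads, where the remaining 15 had 22 to 50. Its 4 Y-linked genes had 2 reads in all, where the remaining 15 had 1830 to 3066. Values that moved by over 1.5 times, changed sign or lost a call without it are given also without it.

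Several selenoprotein mRNAs fell in both backgrounds. *Gpx1*, the abundant cytosolic glutathione peroxidase, was at 14.04, 14.20, 13.09 and 13.91 in Trsp fl/fl livers and at 11.99, 11.66, 11.71 and 11.43 in the *Trsp* knockout. In the *Keap1* mutant it was at 13.48, 13.34, 13.35 and 13.95 without and at 11.59, 11.81, 11.50 and 11.85 with *Alb*Cre. The groups did not overlap in either background, and the log2 effects were -2.11 (standard error 0.21, limma adjusted p = 6.2e-05) and -1.84 (adjusted p = 0.00043). The interaction of *Gpx1* was 0.27 with a 95% interval from -0.37 to 0.90. *Selenow*, a small redox protein, fell by 1.39 and 1.15, *Selenop*, the secreted selenium carrier, by 1.01 (adjusted p = 0.016) and 1.31, and *Selenot* of the endoplasmic reticulum by 0.83 and 0.76. Of 24 listed selenoproteins, 21 were tested, of which 2 were called lower with normal KEAP1 and 3 in the *Keap1* mutant (absolute log2 change over 1 and adjusted p under 0.01), where 0.0253% and 0.101% of all genes were. The *Alb*Cre libraries all lay below their controls for 9 of them with normal KEAP1 and 8 in the *Keap1* mutant, against 2.62% and 3.71% of all genes. Their median effect was -0.57 with normal KEAP1 and -0.43 in the *Keap1* mutant, with a median interaction of 0.19 against 0.0022 over all genes (0.05 to 0.27 when each library was left out in turn, and lowest without *Trsp* knockout replicate 2). No selenoprotein had an interaction at an adjusted p under 0.05.

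Across all genes, 30 were called higher and 4 lower in the *Trsp* knockout with normal KEAP1, and 11 higher and 16 lower in the *Keap1* mutant. The interaction passed the same limits for 9 genes, of which 5 (0.0317% of all genes) had a positive sign and 4 a negative one. At an adjusted p under 0.05 its sign was negative in 9 genes and positive in 6. At an unadjusted p under 0.05 it covered 1697 genes. Without compound mutant replicate 1, 7 genes were more negative and 6 more positive. Without compound mutant replicate 4 they were 28 and 15. The more negative genes numbered 4 or 5 without Trsp fl/fl replicate 2, *Trsp* knockout replicate 3, *Keap1* mutant control replicate 1 or 2, or compound mutant replicate 3.

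Responses were sorted from the average of the 2 *Trsp* effects, an estimate that does not use their difference. The average exceeded 0.5 in size with an adjusted p under 0.01 for 74 genes, 0.469% of those tested. Of these, 6 were KEAP1-dependent (interaction against the direction of the average, adjusted p under 0.05), 23 were retained (same direction in the *Keap1* mutant at an adjusted p under 0.05, with 0 inside the 95% interval of the interaction), 6 were larger in the mutant and 39 were unresolved. Retained does not mean equal, since the median half-width of the interval in that class was 0.55 on the log2 scale. Without *Trsp* knockout replicate 3, *Keap1* mutant control replicate 2 or compound mutant replicate 3, 3 genes were KEAP1-dependent. With a count minimum of 50 there were 2, and with limma voom or a constant of 0.5 in place of 4 there were 0. Of 49 genes with a positive average, 35 had a smaller effect in the *Keap1* mutant, where 49.8% of all genes had a negative interaction, and 48 kept a positive sign there. Their median interaction was -0.42. The 49 include 5 genes read in the compound mutant alone. They also include *Gsta1*, *Vtcn1* and *Gm4756*, which passed the filter on low counts only through the *Trsp* knockout. For such genes the sign of the interaction followed from how they entered, so these counts only describe the set. Of 25 genes with a negative average, 7 had a smaller effect in the *Keap1* mutant, and all 25 kept the sign.

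**Figure D1:**
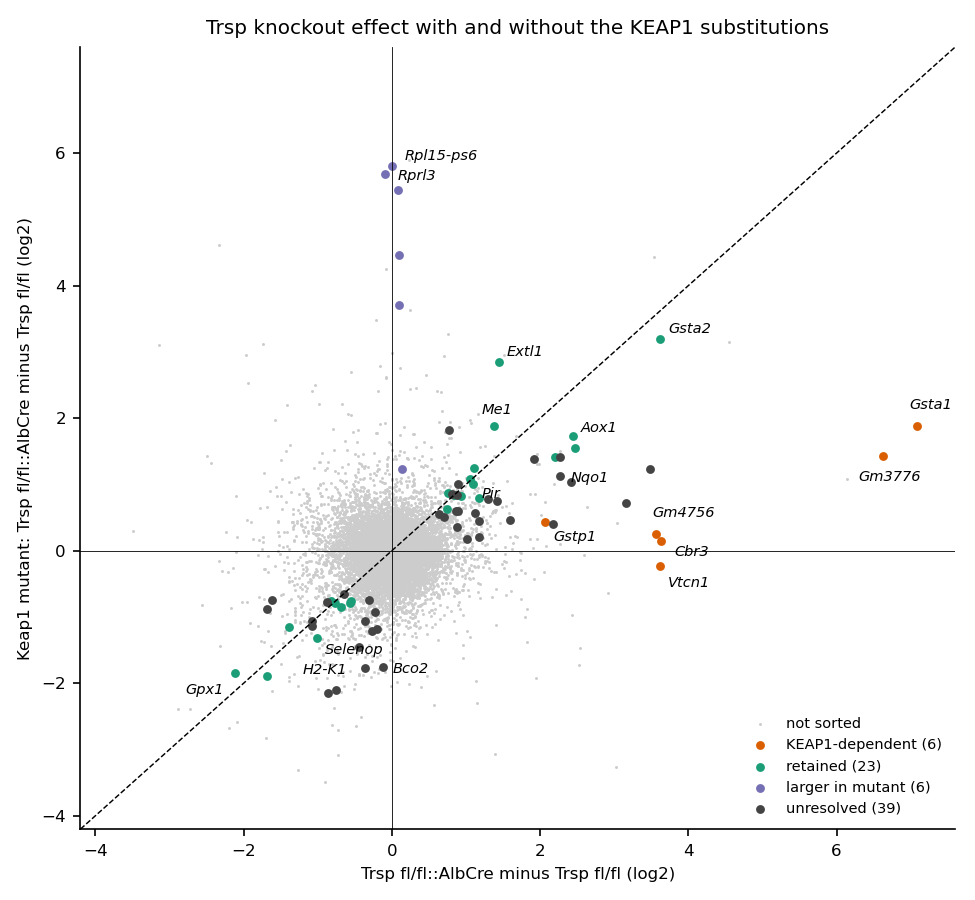
The *Trsp* knockout effect of each of 15781 genes is plotted with normal KEAP1 (horizontal axis, log2) against the *Keap1* mutant (vertical axis, log2), with equal effects on the dashed line and the 74 sorted genes coloured by class. *Gsta1* and *Gm3776* lie far to the right and above the horizontal axis, and *Vtcn1*, *Gm4756* and *Cbr3* lie to the right near that axis. *Gstp1* lies less far right, *Gsta2* and *Gpx1* lie near the dashed line, and 5 genes read in the compound mutant alone lie on the vertical axis.

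The KEAP1-dependent genes were 2 alpha class glutathione S-transferase genes, a pi class member, a carbonyl reductase, *Vtcn1* and the predicted gene *Gm4756*. The interaction chose them, so its sizes describe them and lend them no support. *Gsta1* (ENSMUSG00000074183), which conjugates glutathione to electrophiles, had 0 to 7 reads in Trsp fl/fl livers, 704 to 1195 in the *Trsp* knockout, 0 or 1 in the *Keap1* mutant control and 5 to 23 in the compound mutant. On the log2 scale its effects were 7.09 (standard error 0.36) and 1.88 (standard error 0.36, adjusted p = 0.020), with an interaction of -5.21 (adjusted p = 7.2e-05). Every compound mutant library was above every *Keap1* mutant control library, so a rise remained, from 2.15 ± 0.17 to 4.03 ± 0.70 (SD, n = 4 each), and without compound mutant replicate 1 its adjusted p was 0.0715. The sizes of these changes depend on the constant of 4, since the controls had few reads or none. Without the *Trsp* knockout libraries, *Gsta1* would not have passed the filter on low counts.

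*Gm3776* moved with *Gsta1*, with effects of 6.63 and 1.43 and an interaction of -5.19 (adjusted p = 0.00031). Of its 31-base words, 87.9% occur in *Gsta1* transcripts, so the counting could divide reads between these copies. Both interactions held under 23 of 25 alternatives and were lost with a constant of 0.5 in place of 4 (adjusted p = 0.235 and 0.199) and with limma voom on the recovered reads (0.34 and 0.38).

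*Vtcn1*, a cell surface ligand of the B7 family that restrains T cells, was at 3.13, 2.89, 3.12 and 2.39 in Trsp fl/fl livers and at 6.96, 5.82, 6.81 and 6.40 in the *Trsp* knockout. It was at 2.52, 2.97, 2.69 and 2.31 in the *Keap1* mutant control and at 2.55, 2.73, 2.30 and 2 in the compound mutant. The *Trsp* knockout libraries stood apart from the other 12, and the effects were 3.62 and -0.23 with an interaction of -3.84 (95% interval -4.72 to -2.96). *Gm4756* had the same pattern, with 20 to 89 reads in the *Trsp* knockout and 0 to 6 in every other library. Both genes passed the filter on low counts through the *Trsp* knockout libraries alone. The interaction of *Vtcn1* was lost with limma voom (adjusted p = 0.084) and with a count minimum of 50 (0.074), and that of *Gm4756* was lost under 7 of 24 alternatives.

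*Cbr3* and *Cbr1* encode carbonyl reductases. *Cbr3* was at 3.60 ± 0.40, 7.23 ± 1.11, 3.18 ± 0.36 and 3.33 ± 0.35 in the 4 genotypes (SD, n = 4 each), and its interaction was -3.49 (adjusted p = 0.038). The *Trsp* knockout libraries, at 8.56, 6.82, 7.61 and 5.96, varied more than the others but lay above all of them. *Cbr1*, with more reads, was at 10.04 ± 0.31, 11.57 ± 0.37, 9.82 ± 0.08 and 9.77 ± 0.34, with effects of 1.53 and -0.05 and an interaction of -1.58 (adjusted p = 0.038). *Cbr1* did not enter the sorted genes because its average effect failed the limits. Leaving out compound mutant replicate 1 gave adjusted p-values of 0.066 and 0.084, and the interaction was lost under 15 of 25 alternatives for *Cbr3* and under 18 of 25 for *Cbr1*.

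*Gstp1* and *Gstm3* are pi and mu class glutathione S-transferases. *Gstp1*, an abundant transcript, was at 11.29, 11.34, 11.89 and 12.32 in Trsp fl/fl livers and at 13.91, 13.78, 13.76 and 13.68 in the *Trsp* knockout. In the *Keap1* mutant it was at 11.54, 11.12, 11.21 and 11.21 without and at 11.70, 11.58, 11.40 and 12.15 with *Alb*Cre. Only the *Trsp* knockout stood apart, and the effects were 2.07 and 0.43 with an interaction of -1.64 (adjusted p = 0.041), a call kept under 4 of 25 alternatives (adjusted p from 0.0037 to 0.13). *Gstm3* was at 10.23 ± 0.13 in Trsp fl/fl and 13.15 ± 0.14 in *Trsp* knockout livers and at 7.91 ± 0.78 and 7.28 ± 1.03 in the *Keap1* mutant genotypes. It was lower in the *Keap1* mutant control than in Trsp fl/fl (log2 -2.32, adjusted p = 0.047), and its effect of *Alb*Cre there was -0.63 (adjusted p = 0.54). Its interaction was -3.54 (adjusted p = 0.022, and 0.052 without compound mutant replicate 1), and it was lost under 10 of 25 alternatives.

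*Tram2*, which takes part in protein translocation into the endoplasmic reticulum, had a negative interaction (-1.23, adjusted p = 0.0050) of another shape. It was at 8.42, 8.48, 8.73 and 8.82 in Trsp fl/fl livers, at 8.85, 8.83, 8.65 and 8.86 in the *Trsp* knockout and at 8.87, 8.88, 8.59 and 8.77 in the compound mutant. The *Keap1* mutant control alone was high, at 10.08, 9.78, 9.87 and 9.56. The *Trsp* effects were therefore 0.18 and -1.05, and *Tram2* was no gene induced by *Trsp* loss. It was the one negative interaction to hold under all 25 alternatives.

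**Figure D2:**
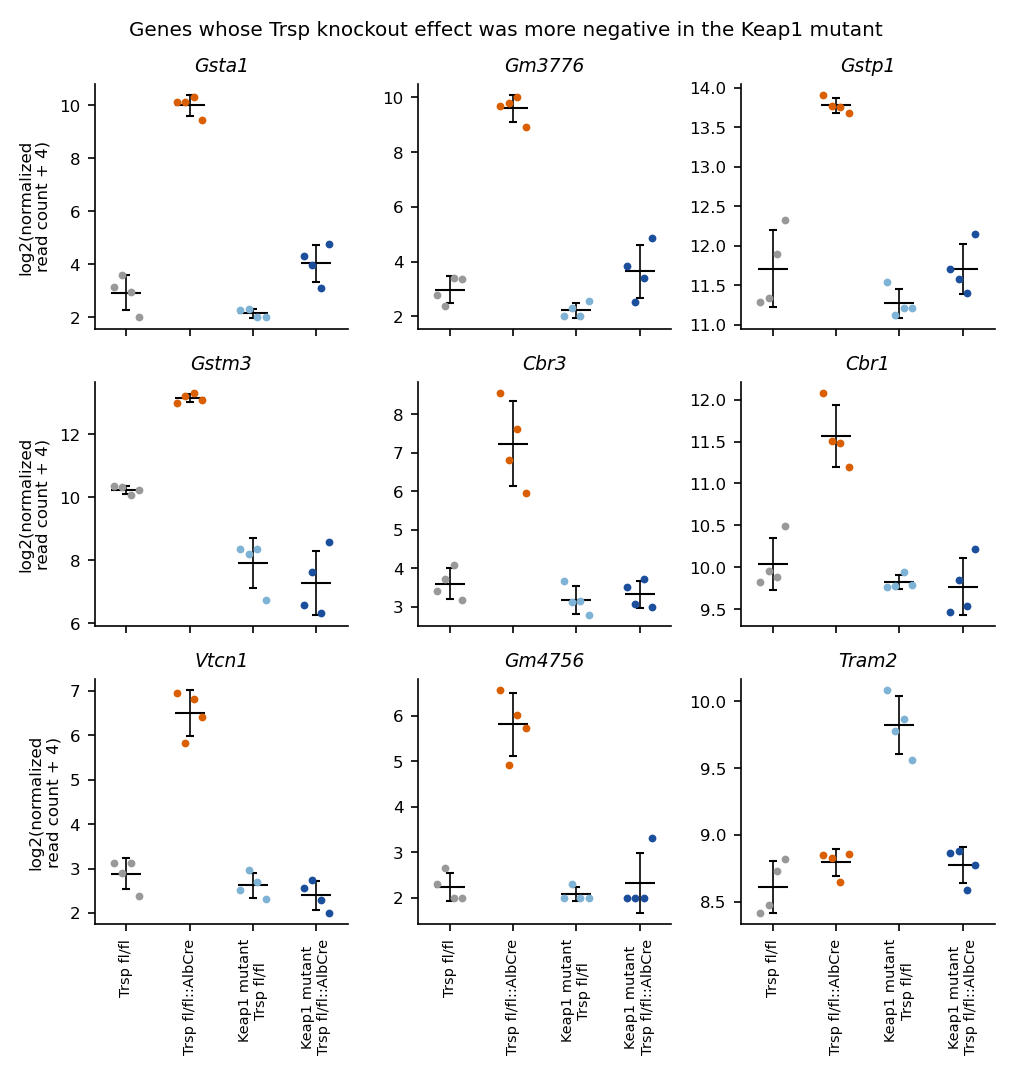
Values of each library are plotted for the 9 genes whose interaction was negative at an adjusted p under 0.05 (vertical axis, log2 of normalized read count plus 4), with the mean and SD of the 4 libraries of each genotype as bars. In 8 genes the *Trsp* knockout libraries lie above those of the other 3 genotypes, and in *Tram2* the *Keap1* mutant control does.

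The retained genes included enzymes of the same families. *Gsta2*, another alpha class member, was at 6.46, 7.0, 7.62 and 7.32 in Trsp fl/fl livers and at 11.23, 11.11, 10.40 and 10.10 in the *Trsp* knockout. In the *Keap1* mutant it was at 6.11, 4.47, 4.79 and 5.85 without and at 7.88, 8.86, 7.75 and 9.48 with *Alb*Cre. Neither pair of groups overlapped, the effects were 3.61 and 3.19, and the interaction of -0.42 had a 95% interval from -1.71 to 0.87. Of the 31-base words of *Gsta2*, 44.7% occur in *Gsta1* transcripts, and a difference between the interactions of these genes was not tested.

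*Aox1*, the molybdenum enzyme aldehyde oxidase, rose by 2.44 and 1.73, and *Ephx1*, microsomal epoxide hydrolase, rose by 2.20 and by 1.41 (adjusted p = 0.021 in the *Keap1* mutant). Their interactions were -0.72 (interval -1.51 to 0.08) and -0.78 (interval -1.59 to 0.02), so 0 was close to the edge in both. Without compound mutant replicate 1 the effect of *Aox1* in the *Keap1* mutant had an adjusted p of 0.013. *Pir*, an iron-binding nuclear protein, was at 7.68, 7.85, 8.18 and 8.11 in Trsp fl/fl and at 9.07, 8.92, 9.12 and 9.08 in *Trsp* knockout livers, and at 6.93, 7.04, 7.13 and 6.89 in *Keap1* mutant control and 7.73, 8.26, 7.82 and 8.24 in compound mutant livers. *Pir* was thus higher with *Alb*Cre in both backgrounds, from a lower base in the *Keap1* mutant. Its effects were 1.09 and 1.01, with an interaction of -0.08 (interval -0.50 to 0.34).

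*Me1*, malic enzyme and a source of NADPH, had effects of 1.38 and 1.88, the first with a limma adjusted p of 0.20 and the second of 0.049. In the *Trsp* knockout its libraries were split, at 10.12, 9.40, 11.70 and 11.54 against 8.89 to 9.79 in Trsp fl/fl. Without compound mutant replicate 1 its effect in the *Keap1* mutant had an adjusted p of 0.12. *Sqstm1*, which encodes the autophagy receptor p62, rose by 0.74 and 0.63, with an interaction of -0.11 (interval -0.47 to 0.26). *Extl1*, a glycosyltransferase of heparan sulfate synthesis, had effects of 1.44 and 2.85, and 0 was just inside the interval of its interaction (-0.01 to 2.83). Leaving out compound mutant replicate 1, 2 or 3 left 15, 14 or 13 retained genes, and leaving out *Keap1* mutant control replicate 1, 2 or 3 left 12, 11 or 11.

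**Figure D3:**
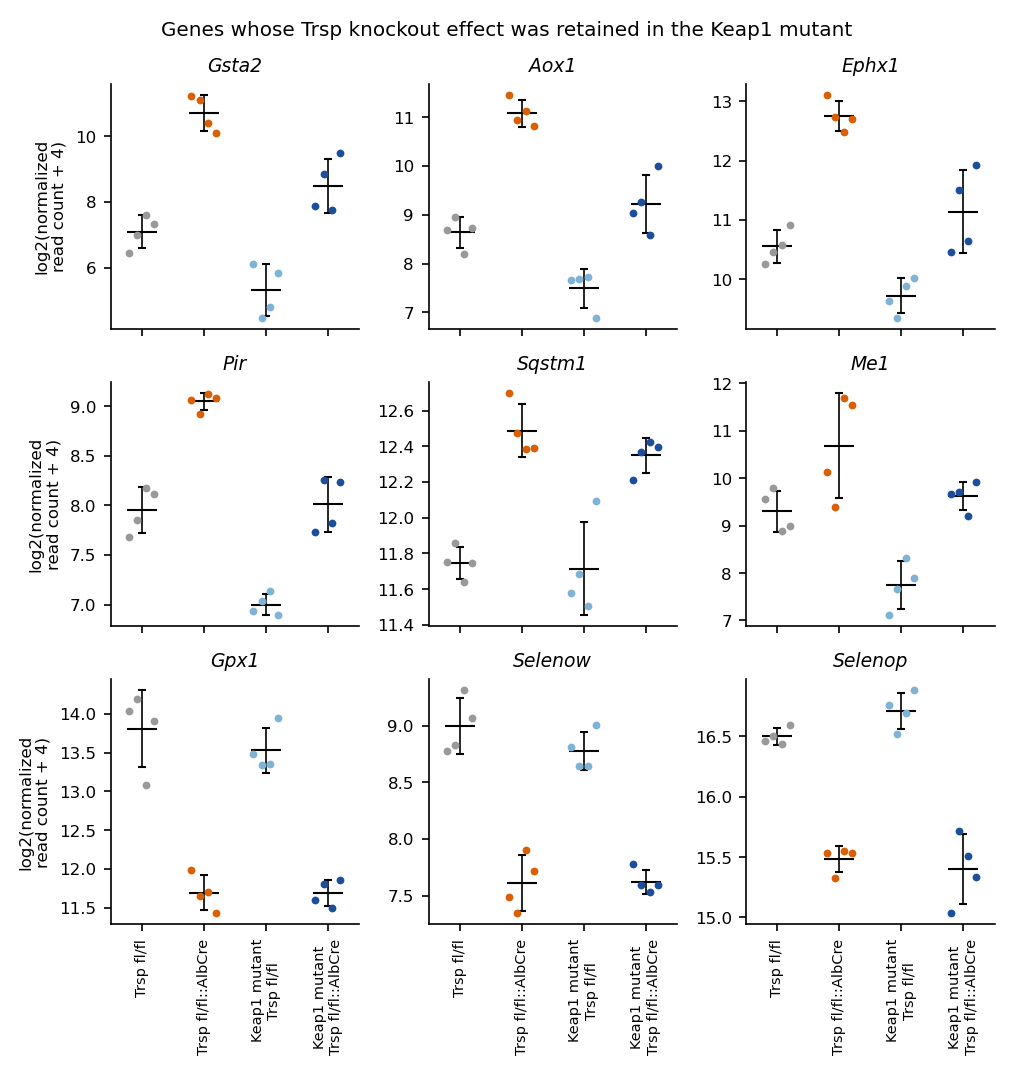
Values of each library are plotted for 9 retained genes (vertical axis, log2 of normalized read count plus 4), with the mean and SD of the 4 libraries of each genotype as bars. *Gsta2*, *Aox1*, *Ephx1*, *Pir*, *Sqstm1* and *Me1* have higher means with *Alb*Cre in both backgrounds and the 3 selenoprotein mRNAs *Gpx1*, *Selenow* and *Selenop* lower ones.

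Among the unresolved genes were well-known NRF2 targets whose interaction did not pass the test over all genes. *Nqo1*, the quinone reductase widely used as a readout of NRF2, was at 7.35, 7.57, 7.21 and 7.37 in Trsp fl/fl livers and at 10.16, 9.40, 9.73 and 9.29 in the *Trsp* knockout. It was at 5.60, 5.59, 5.40 and 5.61 in the *Keap1* mutant control and at 6.88, 7.16, 6.17 and 6.52 in the compound mutant. The 4 genotypes did not overlap, and every compound mutant library remained below every Trsp fl/fl library. The effects were 2.27 and 1.13 (adjusted p = 0.017 in the *Keap1* mutant), and the interaction of -1.14 had an interval from -1.76 to -0.52 and an adjusted p of 0.24 over all genes. Without compound mutant replicate 1 the adjusted p of its effect in the *Keap1* mutant was 0.060.

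*Ugdh*, which makes UDP-glucuronic acid, had effects of 2.27 and 1.41. *Srxn1*, the sulfiredoxin that repairs peroxiredoxins, had effects of 1.42 and 0.74, and *Abcc4*, an export pump, of 2.42 and 1.04. *Htatip2*, an oxidoreductase, had effects of 1.60 and 0.47 and *Slc48a1*, a heme transporter, of 1.18 and 0.21. The 95% intervals of these 5 interactions lay below 0, but their adjusted p-values over all genes ran from 0.144 to 0.385. *Ugdh* was called higher in the *Keap1* mutant (adjusted p = 0.0063), and without compound mutant replicate 1 the adjusted p was 0.020.

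**Figure D4:**
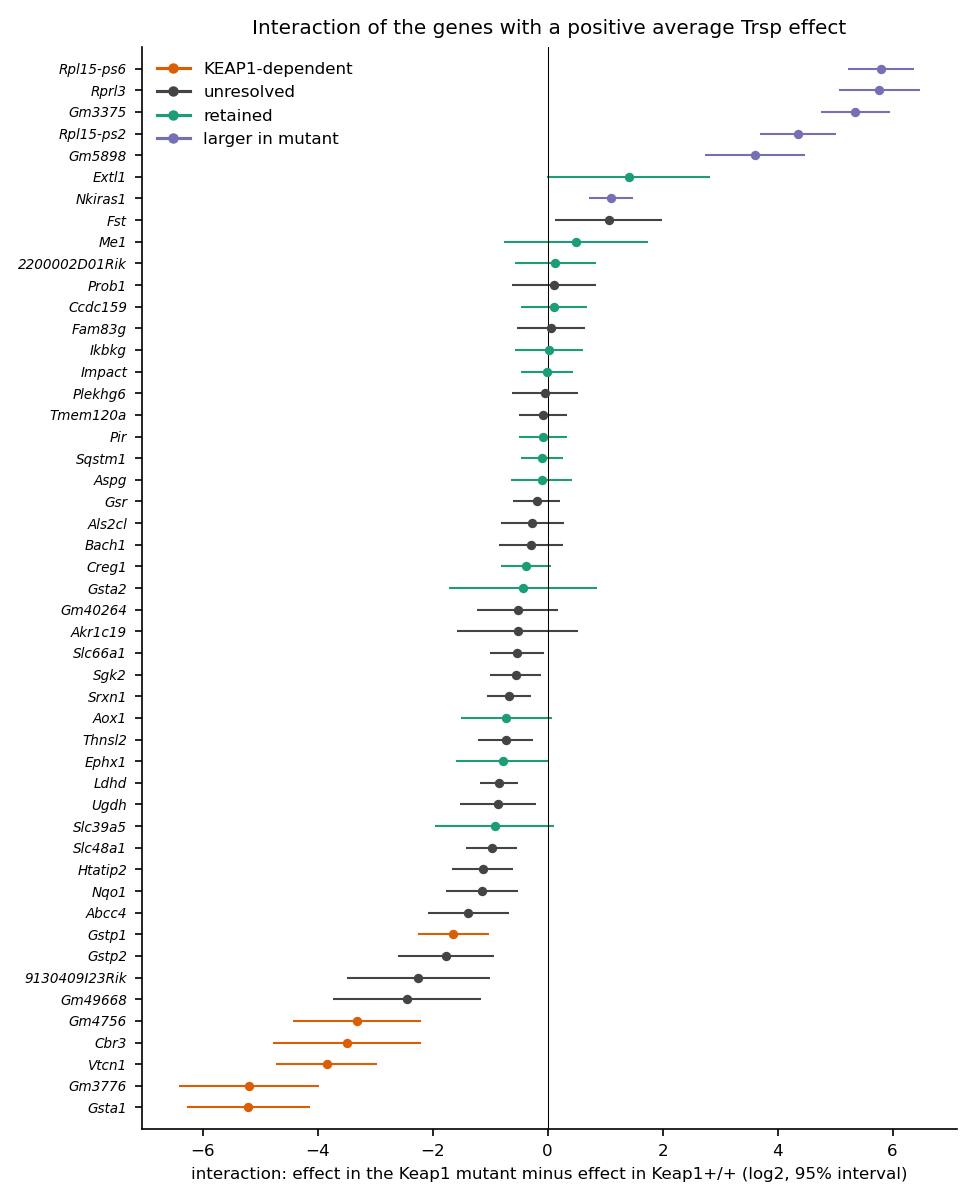
The interaction (horizontal axis, log2, with its 95% interval) is plotted for all 49 genes with a positive average *Trsp* effect, coloured by class. The points run from *Gsta1* at -5.21 to *Rpl15-ps6* at 5.80, with 35 below 0 and the 5 highest being genes read in the compound mutant alone.

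Promoter sequence is shown for the NRF2 target genes of the retained and unresolved classes whose RefSeq promoter (GRCm38.p6, 250 bases before to 50 after the start) held the core of the antioxidant response element, TGACNNNGC on either strand, with 10 flanking bases on each side wholly before the start. Capitals mark the match, which reads GCNNNGTCA where it lies on the opposite strand.
Pir, chrX:164269207-164269235, + strand: gcatagagagGCTGAGTCActcccccaaa
Ugdh, chr5:65435956-65435984, - strand: gcggagcccgTGACTTAGCtggagctgat
Ugdh, chr5:65435918-65435946, - strand: tcctcaagggGCGTGGTCAtacagttcgg
Abcc4, chr14:118676936-118676964, - strand: aataatctcgTGACTCTGCcgtggtggat
Abcc4, chr14:118706226-118706254, - strand: gccccgagagGCGGGGTCAgggcgggccg
Htatip2, chr7:49759453-49759481, + strand: gtctgagctgTGACTCAGCacttccctag

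The match occurred in 12.4% of 32851 promoter windows and in 16.4% of the 10900 tested genes with a window. Of the risen genes with a window, 0 of 5 KEAP1-dependent, 5 of 13 retained and 6 of 17 unresolved genes held one. These are few genes, the classes came from the same expression values, and a match describes letters in a short window. The windows of *Nqo1*, *Gsta1* and *Vtcn1* held none.

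By pathway, the NRF2 target lists had lower medians in the *Keap1* mutant than with normal KEAP1. They hold 110 genes, of which 107 were tested, and their members were chosen with earlier results known, so their direction is not independent evidence. With normal KEAP1, 17 were called higher and 0 lower, against 0.19% of all genes called higher, and their median effect was 0.46. In the *Keap1* mutant 4 were called higher and 0 lower, against 0.0697% of all genes, and the median was -0.0017 (0.047 without compound mutant replicate 1). The *Alb*Cre libraries all lay above their controls in 46 of the 107 genes with normal KEAP1 and in 14 in the *Keap1* mutant, where 3.4% and 3.97% of all genes did so. The interaction was negative for 92 of 107, and for 44 of them (41.1%) at an unadjusted p under 0.05, where 5.29% of all genes were. At an adjusted p under 0.05 over all genes it was negative for 5, against 0.057% of all genes, and positive for 0. The 5 were *Gsta1*, *Gstm3*, *Gstp1*, *Cbr1* and *Cbr3*. The median interaction was -0.53 (-0.38 without compound mutant replicate 1).

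The most negative median interaction among these lists was that of glucuronidation, at -0.996. All 12 of the glucuronidation genes had a negative interaction, with medians of 0.67 and -0.40 for the 2 *Trsp* effects (-0.22 for the second without compound mutant replicate 1), although none passed an adjusted p under 0.05 in the interaction. *Ugt2b1*, a UDP-glucuronosyltransferase, had effects of 0.92 and -0.88, and *Ugt2b35* of 1.30 and -0.11. Of 21 glutathione S-transferase genes, 19 had a negative interaction, with medians of 0.74 and 0.08 (0.16 without compound mutant replicate 1). *Gstm1*, the major mu class member, had effects of 1.96 (adjusted p = 0.0033) and 0.18 (adjusted p = 0.85) and an interaction of -1.78 (adjusted p = 0.20). *Gsta4*, which clears 4-hydroxynonenal, had an interaction of -1.07 (adjusted p = 0.31).

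Quinone, carbonyl and epoxide enzymes had medians of 0.82 and 0.16 (16 of 18 interactions negative), export transporters 0.73 and 0.11, carboxylesterases 0.21 and -0.47, and glutathione synthesis genes 0.38 and -0.0017. Without compound mutant replicate 1 the median in the *Keap1* mutant was 0.20 for glutathione synthesis genes and -0.25 for carboxylesterases, and the median interaction of carboxylesterases went from -0.65 to -0.38. *Gclc*, the catalytic subunit of glutamate-cysteine ligase, had an effect of 1.13 with normal KEAP1 (adjusted p = 0.062) and none beyond its error in the *Keap1* mutant (standard error 0.25), with an interaction interval from -1.89 to -0.37. Among the lists of NRF2 targets, NADPH supply and the thiol and peroxide enzymes had the smallest medians with normal KEAP1. NADPH supply was at 0.13 and -0.02, and the thiol and peroxide enzymes were at 0.14 and 0.06. Without compound mutant replicate 1 the medians in the *Keap1* mutant were -0.036 and 0.035. *Txnrd1*, thioredoxin reductase, had effects of -0.26 and -0.30, and *Txn1*, thioredoxin, of 0.30 and 0.05. *Nfe2l2*, which encodes NRF2, was itself at -0.50 and -0.30, and no one of these 3 genes passed the test in either background.

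The base from which the *Keap1* mutant responded was also lower. In the comparison of the 2 controls, 91 of the 107 NRF2 target genes were lower in the *Keap1* mutant, with a median of -0.35, where 51.0% of all genes were lower. That comparison shares the Trsp fl/fl libraries with the *Trsp* effect. *Nqo1* was lower by a log2 of -1.82 (adjusted p = 0.0015) and *Pir* by -0.96 (adjusted p = 0.019), and *Nqo1* was the 1 gene called lower, as *Tram2* was the 1 called higher (0.00634% of genes each). Compound mutant livers stood below Trsp fl/fl livers in 79 of the 107 genes (median -0.27).

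The compound mutant libraries differed among themselves. Over the 107 genes, the median difference from the Trsp fl/fl mean was -0.53, -0.19, -0.47 and 0.02 in compound mutant replicates 1 to 4, against 0.40 to 0.64 in the *Trsp* knockout and -0.42 to -0.26 in the *Keap1* mutant control. Replicate 4 was the highest of the 4 in 73 of the genes and replicate 1 the lowest in 55. Hepatocyte markers moved with this order, at -0.66, 0.09, -0.28 and 0.41, as did P450 genes of families 1 to 3, at -1.68, -0.82, -1.11 and -0.19. Acute phase genes were at 1.63, 0.21, 1.58 and -0.14. Albumin took 4.86%, 7.67%, 6.35% and 7.62% of the reads in these libraries and 6.87% to 10.7% in the other 12. The part of these differences in the interaction was not tested.

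Outside the NRF2 lists, liver function lists had lower medians in the *Keap1* mutant. P450 genes of families 1 to 3, the main oxidases of drugs and steroids, had medians of 0.27 and -0.65. Of their 25 interactions, 21 were negative, 9 of them at an unadjusted p under 0.05. Over all genes, 49.8% were negative, and 5.29% were negative at that limit. *Cyp2a5* had effects of 2.53 and -1.47 (interaction adjusted p = 0.12). Bile acid genes had medians of 0.10 and -0.38, and PPAR-alpha targets, which burn fatty acids, 0.16 and -0.22. The second median was -0.46 for P450 genes and -0.12 for PPAR-alpha targets without compound mutant replicate 1. Hepatocyte markers had 0.30 and -0.26 (-0.15 without it), with 11 of 12 interactions negative, and the summed level of these markers ran from 1067670 to 2107760 normalized reads in the compound mutant against 1831930 to 2449540 in the other 3 genotypes. No gene of these lists passed the interaction test.

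Other lists had higher medians in the *Keap1* mutant. ATF4 and integrated stress response genes, which serve amino acid supply under stress, had medians of 0.34 and 0.76, and 7 of 20 interactions were positive at an unadjusted p under 0.05, where 5.46% of all genes were. *Psat1*, of serine synthesis, had effects of 0.33 and 2.45, and *Nupr1*, a stress-induced nuclear protein, of -0.45 and 1.82 (interaction adjusted p = 0.32 and 0.22). Chaperones of the unfolded protein response had medians of -0.12 and 0.42, and acute phase genes of -0.05 and 0.53. The acute phase median in the *Keap1* mutant was 0.25 without compound mutant replicate 1, and its interaction went from 0.51 to 0.24. *Saa1* and *Saa2*, the serum amyloid A genes, had effects of 3.64 and 4.25 in the *Keap1* mutant, with interaction adjusted p-values of 0.54 and 0.50, from high values in compound mutant replicates 1 and 3 alone. No gene of these 3 lists passed the interaction test at an adjusted p under 0.05, so none was shown to differ between the backgrounds.

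Interferon-stimulated genes had negative effects in the *Keap1* mutant for 22 of 22 members, with medians of -0.32 and -0.93 (-1.11 in the *Keap1* mutant without compound mutant replicate 1). The *Keap1* mutant control itself was higher than Trsp fl/fl, by a median of 0.30, with 3 of 22 genes lower. Against Trsp fl/fl, the compound mutant was lower in 21 of 22 genes, with a median of -0.43. *Usp18*, which restrains interferon signalling, had effects of -0.45 and -1.46 (adjusted p = 0.0065 in the *Keap1* mutant), and *Igtp*, an interferon-inducible GTPase, of -0.78 and -2.38. Class I histocompatibility genes lay beside them among the unresolved genes. *H2-K1* was at 12.70, 12.50, 12.23 and 12.04 in Trsp fl/fl, at 11.91, 11.62, 11.99 and 12.48 in *Trsp* knockout, at 13.14, 13.09, 12.91 and 12.69 in *Keap1* mutant control and at 11.05, 11.10, 10.99 and 11.63 in compound mutant livers. Its compound mutant libraries overlapped the *Trsp* knockout at the top and lay below both controls, with effects of -0.37 and -1.77 and an interaction of -1.40 (adjusted p = 0.099). *Bco2*, a carotenoid-cleaving enzyme of mitochondria named after its values were seen, had effects of -0.12 and -1.76 (interaction adjusted p = 0.11).

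Sterol synthesis genes were lower in both backgrounds, with medians of -0.75 and -0.55, and lipogenesis genes likewise, with -0.36 and -0.40, but the medians with normal KEAP1 rest on a split among the Keap1+/+ libraries. The lipogenesis median in the *Keap1* mutant was -0.26 without compound mutant replicate 1. Per library, the sterol median was 0.60, 0.55, 0.36 and -1.72 in Trsp fl/fl replicates 1 to 4 and -2.16, -1.82, 0.32 and 0.62 in the *Trsp* knockout. All 8 *Keap1* mutant libraries were low, from -2.30 to -1.25. Cell cycle genes had medians of -0.39 and -0.19 (-0.28 without compound mutant replicate 1). No gene of these lists passed the interaction test.

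Markers of blood cells moved as well. Erythroid markers in young livers mark remaining blood formation and blood itself. Their medians were -1.16 and 0.20 (-0.07 for the second without compound mutant replicate 1). At an unadjusted p under 0.05, 7 of 13 interactions were positive, where 5.46% of all genes were. That count includes compound mutant replicate 1. Compound mutant replicate 1 had a median of 0.80 against -0.99 to -1.29 in the other 3 of its group, and without it the median interaction fell from 1.89 to 1.13. The summed erythroid level ran from 36696 to 67660 normalized reads in Trsp fl/fl, 19104 to 38784 in *Trsp* knockout, 17736 to 30797 in *Keap1* mutant control and 18465 to 100499 in compound mutant livers. Neutrophil markers had 9 of 9 interactions positive, with a median of 0.83 that ran from 0.43 without Trsp fl/fl replicate 4 to 1.26 without *Keap1* mutant control replicate 2. Kupffer cell and macrophage markers had 12 of 12 negative, with a median of -0.31 that ran from -0.54 without *Keap1* mutant control replicate 3 to -0.05 without compound mutant replicate 4. No marker of these cells passed the interaction test, and their part in the other results was not tested.

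**Figure D5:**
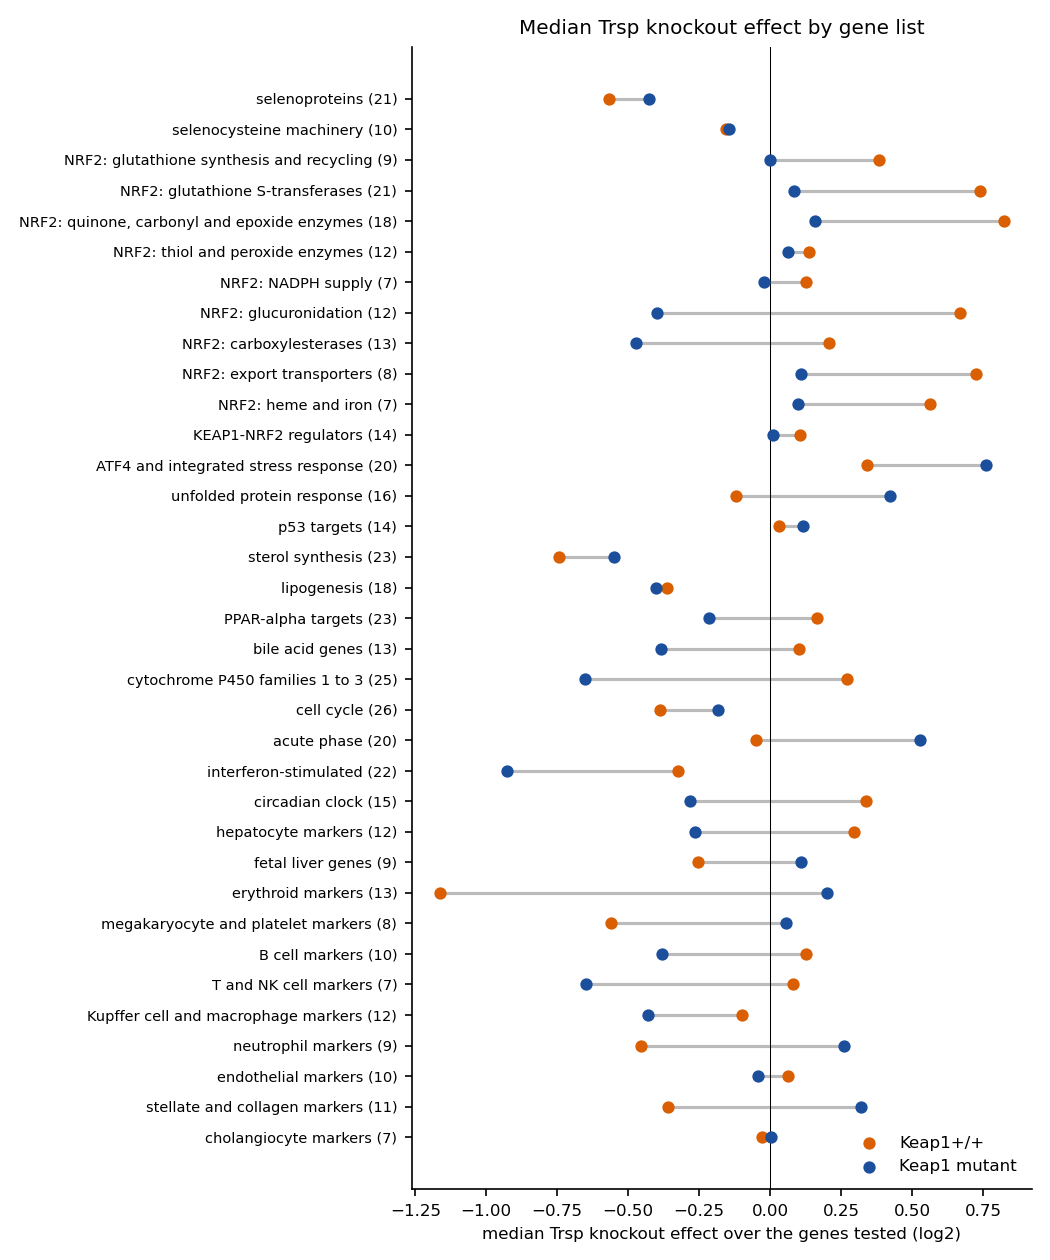
The median *Trsp* knockout effect over the genes tested (horizontal axis, log2) is plotted for each gene list, with normal KEAP1 in orange and the *Keap1* mutant in blue, and the number of genes tested in brackets. Selenoproteins and sterol synthesis lie left of 0 in both, the NRF2 lists lie further right with normal KEAP1 than in the *Keap1* mutant, and erythroid markers run from -1.16 to 0.20.

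The interactions in the positive direction came from genes of another kind. *Rpl15-ps6*, *Gm3375*, *Rpl15-ps2*, *Gm5898* and *Rprl3* had 0 or 1 read in each of the 12 libraries of the other genotypes. In compound mutant replicates 1 to 4 *Rpl15-ps6* had 231, 246, 255 and 252 reads, *Gm3375* 187, 192, 194 and 194, and *Rprl3* 266, 196, 308 and 163. No other genotype had any gene with at least 20 reads in its 4 libraries and at most 1 in every other library, and no gene was missing from 1 genotype alone by the same limits. These 5 genes passed the filter through the compound mutant alone, and the fitted sizes, 3.61 to 5.80, depend on the constant of 4. The compound mutant enters every interaction given here, and whether its libraries differ from the others in more than the alleles named was not tested.

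Of these, 4 are annotated copies of expressed genes. *Rpl15-ps6* shares 89.3% and *Rpl15-ps2* 70.5% of its 31-base words with *Rpl15*, *Gm3375* shares 70.0% with *Psmb5*, and *Gm5898* shares 76.7% with *Thrap3*, so reads could be divided between copy and source. *Rprl3*, an RNase P RNA-like gene, shares 10.8% with its closest match. *Rpl15*, looked up after these values were seen, had an interaction of 0.07 (adjusted p = 0.885). *Nkiras1*, the remaining positive interaction, encodes an inhibitor of NF-kappa-B signalling. It was at 6.66 ± 0.09, 6.79 ± 0.13 and 6.45 ± 0.19 in the first 3 genotypes and at 7.67, 7.61, 7.58 and 7.90 in the compound mutant, with an interaction of 1.10 (adjusted p = 0.022, and 0.052 without compound mutant replicate 1), lost under 7 of 25 alternatives.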

How the data were processed

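Total RNA of mouse livers was rRNA-depleted, made into stranded libraries and quantified by the authors with Salmon on GENCODE version 30 mouse transcripts, the submitters' notes giving no Salmon version. The deposited values are log2 of normalized counts plus 4, made by the authors in iDEP. Reads were recovered from the steps of these values (100% of values under 60 reads came out whole within 0.05 reads), with the size factor of each library. The study's methods mention TPM, whereas the deposited values step by whole reads at 1 size for all genes of a library. Rows without a gene identifier (369, with 0.274% to 0.627% of reads) were left out. A gene was tested where 4 or more libraries reached a normalized count of 10. The deposited log2 values were fitted with limma 3.58.1 in R 4.3.3 (1 mean per genotype, eBayes with trend, Benjamini-Hochberg adjustment). Calls needed an absolute log2 change over 1 and an adjusted p under 0.01. The labels number the 4 libraries of a genotype without saying that each came from its own mouse, and p-values measure only the spread between these libraries.

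The genes named are those called in the interaction, up to 12 in each direction with the smallest p among interactions at an adjusted p under 0.05, up to 10 in each direction with the largest called average effects, the leading members of each list, genes the study names in these livers, and *Keap1*, *Nfe2l2* and sex-linked genes. The members and lists were chosen with earlier results of these data known. Words of 31 bases were compared between GENCODE vM21 transcripts. Alternatives were a constant of 1 or 0.5, other filters, quantile normalization, scaling to library totals, eBayes without trend, limma voom on recovered reads, a replicate block, a looser p limit and each library left out. The interaction test at an adjusted p under 0.05, with no fold limit, was also run on simulated data of 15781 genes. It found 98 of 100 genes with an interaction of log2 2, 100 of 100 with log2 3, and 10 unchanged genes. The simulated interactions were all in genes with a mean count over 100, and every gene had the same dispersion. These shares therefore need not hold for the livers, where the spread differed between genes and libraries.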

Additional observations from a re-analysis of the deposited data

Results flagged for a closer look

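The 2 *Trsp* effects differed by the test of the interaction at an adjusted p under 0.05 (limma) for 15 genes. The interaction was -5.21 for *Gsta1*, -5.19 for *Gm3776*, -3.84 for *Vtcn1*, -3.54 for *Gstm3*, -3.49 for *Cbr3*, -3.32 for *Gm4756*, -1.64 for *Gstp1*, -1.58 for *Cbr1* and -1.23 for *Tram2*. It was 5.80 for *Rpl15-ps6*, 5.77 for *Rprl3*, 5.35 for *Gm3375*, 4.36 for *Rpl15-ps2*, 3.61 for *Gm5898* and 1.10 for *Nkiras1*.

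Single libraries stood far from the other 3 of their genotype by Dixon's test at the 95% level in 18 of 172 groups of 4, in 43 genes. Chance gives about 1 in 20, or 8.6, but only for values without ties. Where the other 3 libraries had no reads they tied, and 1 read was then always flagged. The 18 include such cases, so the count cannot be read as an excess over 8.6. Among genes with reads in the controls, *Gstm3* was at 6.74 and *Aox1* at 6.89 in *Keap1* mutant control replicate 4, against 8.19 to 8.37 and 7.67 to 7.72 in the others. The same library had *Sptb* at 7.11. *Keap1* mutant control replicate 3 had *Nqo1* at 5.40 and *Cbr1* at 9.94. *Trsp* knockout replicate 3 had *Tram2* at 8.65, replicate 2 had *Selenop* at 15.3, and replicate 1 had *Pcp4l1* at 9.10. Trsp fl/fl replicate 1 had *H2-Q7* at 8.42.

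The remaining cases are reads against none, a single read in each but *Gm4756* of compound mutant replicate 4, which was at 3.32. *Rpl15-ps6* and *Rprl3* were at 2.27 in *Keap1* mutant control replicate 3, *Gm3375* at 2.31 in replicate 4 and *Gm4756* at 2.31 in replicate 2. *Gm3375* and *Rprl3* were at 2.34 in *Trsp* knockout replicate 3, and *Rpl15-ps2* and *Gm5898* at 2.41 in replicate 2.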

How the results depend on the processing

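Of the counts and list medians, 1137 values under an alternative were close to the reported one and 72 moved. Of the values of single genes, 978 kept their direction and side of the threshold, 86 lost significance, 8 gained it and 0 reversed. With an adjusted p under 0.05, 50 genes were called higher and 10 lower with normal KEAP1, 31 and 44 in the *Keap1* mutant, 50 and 37 in the average, and 9 had a more negative interaction. Scaling to library totals, which moved the median of all genes by 0.12 in the *Keap1* mutant and by 0.128 in the interaction, gave 19 genes called higher in the *Keap1* mutant, 44 retained genes, and median interactions of 0.32 for selenoproteins, 0.19 for selenocysteine machinery, -0.062 for thiol and peroxide enzymes, -0.17 for heme and iron genes and 0.0055 for KEAP1-NRF2 regulators. Quantile normalization gave -0.025 for thiol and peroxide enzymes and -0.0099 for the regulators. Without the trend, 10 genes were called lower in the *Keap1* mutant. A count minimum of 50 left 3 positive interactions at the stricter limits, 4 negative ones at an adjusted p under 0.05, 2 KEAP1-dependent genes and an ATF4 list median of 0.12, with fewer genes tested and no value for the T and NK cell list. A constant of 1 left 2 negative interactions at the stricter limits. A constant of 0.5 and limma voom each left 1, with 3 and 2 at an adjusted p under 0.05 and 0 KEAP1-dependent genes. The causes were not tested.

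With single libraries left out, 2 to 5 genes were called lower with normal KEAP1, 7 to 16 higher and 6 to 26 lower in the *Keap1* mutant, and 7 to 15 lower in the average. The interaction was more negative for 3 to 8 genes at the stricter limits and for 4 to 28 at an adjusted p under 0.05, and more positive for 5 to 15. KEAP1-dependent genes numbered 3 to 8 and retained genes 11 to 29. Median interactions ran from 0.053 to 0.27 for selenoproteins, -0.044 to 0.098 for selenocysteine machinery, -0.89 to -0.40 for quinone, carbonyl and epoxide enzymes, 1.13 to 2.14 for erythroid markers, -0.96 to -0.49 for T and NK cell markers, 0.12 to 0.67 for cholangiocyte markers and -0.74 to -0.38 for the NRF2 lists together.

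A replicate block gave 6 genes called lower in the *Keap1* mutant and 5 negative interactions at an adjusted p under 0.05. The values showed no general pairing by number. Of 24 same-numbered pairs, 4 correlated above 0.1 (range -0.315 to 0.310), and 2 of 16 libraries correlated best with their own number. Low correlations cannot tell whether same-numbered samples were handled together, which was not tested.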
